A study of Mus musculus with 6 samples.

Results

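Actin cytoskeleton and focal adhesion genes were followed in CAD cells, a neuron-like mouse line from the brain for which the labels list Simian virus 40 (SV40) as transformant. The set holds 49 genes chosen by function. They are the actins and the proteins that bundle, contract, cap, branch or elongate actin filaments, together with the adaptor proteins that tie filaments to adhesion sites. All 49 symbols matched exactly 1 of the 55536 gene identifiers in the count tables. Of these, 47 had enough reads to be tested among 12664 tested genes.

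The study sequenced mRNA libraries of 2 groups, with 3 libraries in each. The cells of all libraries are the same line, labelled as male and of C57BL/6 x DBA/2 origin, and were used at fewer than 10 passages. Serum stood at 8% for the undifferentiated cells. The other group was kept for 5 days in 100 µM dexamethasone, a synthetic glucocorticoid, with serum lowered to 1%. Steroid and serum changed together, so every difference below belongs to the combination and their parts cannot be told apart. The labels name the samples of a group independent without saying whether they were separate cultures, and the p-values measure only the spread between these samples. In such bulk libraries fewer cells of a type and less RNA per cell cannot be told apart.

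Actin exists as single subunits and as filaments that grow at the barbed end. Profilin feeds subunits to growing ends, formins and Ena/VASP proteins elongate filaments, the Arp2/3 complex starts branches, and cofilin takes old filaments apart. Myosin II pulls on filaments that tropomyosin coats. Talin, vinculin, paxillin and zyxin couple those filaments to integrins at focal adhesions, and in neurons the same machinery shapes growth cones and neurites. Serum response factor, with its actin-sensing partner MRTF, is a known transcription factor of many of these genes and binds the CArG box.

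Library totals ran from 6411105 to 8757992 reads, at which 3 reads equal 0.343 to 0.468 CPM (counts scaled to the size of the library). Of the 12 noradrenergic and neuronal markers looked at, all had reads. Their summed level was 3021 to 3121 CPM in undifferentiated and 2706 to 2757 CPM in dexamethasone libraries. Hand2 was the largest part, at a mean of 1135 and 919 CPM. Single markers moved both ways, with 6 higher and 5 lower at an edgeR adjusted p under 0.05. Of all tested genes 40.3% were higher and 38.6% lower by that rule. Dbh went from a mean of 165 to 12.5 CPM and Gata2 from 360 to 162 CPM. Th went from 4.60 to 9.52 CPM and Snap25 from 85.3 to 214 CPM. Steroid response genes summed to 288 to 308 CPM and 1278 to 1290 CPM, and 5 genes of cycling cells to 2563 to 2703 CPM and 106 to 124 CPM. Markers of fibroblasts summed to 10.1 to 14.6 CPM and 24.2 to 26.7 CPM, with Col3a1, Postn and Fap at 0 reads in all libraries. Of the smooth muscle and pericyte markers Cnn1 and Myocd had no read. The sum of that list was 39.6 to 42.3 CPM and 9.74 to 10.8 CPM, most of it from Smtn at a mean of 36.1 and 7.01 CPM. Astrocyte markers summed to at most 1.64 CPM, oligodendrocyte and Schwann cell markers to 184 to 199 CPM and 162 to 171 CPM, and endothelial, microglial and blood markers to 18.3 to 21.3 CPM and 33.4 to 35.7 CPM. The part that these cell states and types play in the actin results was not tested.

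CArG boxes were looked for in the promoters because the factor that binds them is known for many of these genes. RefSeq promoter windows on GRCm38.p6, from 250 bases before to 50 bases after a RefSeq transcript start, were found for 44 members. Actb, Tln2, Pxn, Diaph1 and Tagln had none in the table. A CArG box, read on both strands, lay in windows of 7 members, or 14.0% of the 50 member windows. It lay in 1.63% of all 32851 windows of that length and in 1.29% of the windows of tested genes. A match describes letters only and is not a bound site. The stretches around the 7 boxes are printed 5′ to 3′ on the gene's strand, all upstream of the RefSeq start of their window, with the box in capitals:
Actg1 (chr11:120348546-120348605, minus strand): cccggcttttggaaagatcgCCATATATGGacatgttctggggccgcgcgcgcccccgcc
Vcl (chr14:20929151-20929210, plus strand): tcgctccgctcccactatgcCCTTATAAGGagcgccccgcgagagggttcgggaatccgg
Cnn2 (chr10:79988524-79988583, plus strand): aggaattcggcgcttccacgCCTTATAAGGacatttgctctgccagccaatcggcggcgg
Myl6 (chr10:128493020-128493079, minus strand): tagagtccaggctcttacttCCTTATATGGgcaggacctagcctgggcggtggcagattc
Arpc4 (chr6:113377863-113377902, plus strand): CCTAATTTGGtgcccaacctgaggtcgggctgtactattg
Lima1 (chr15:99820157-99820216, minus strand): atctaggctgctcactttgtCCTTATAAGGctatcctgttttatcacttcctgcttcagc
Myl9 (chr2:156775283-156775342, plus strand): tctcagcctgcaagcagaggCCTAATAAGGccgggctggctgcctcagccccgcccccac
The stretches of Myl6 and Lima1 belong to internal starts and lie inside the annotated gene, 1066 and 55240 bases from its outermost start. The same box letters stood in Vcl, Cnn2 and Lima1. The boxes of Lima1, Myl6, Cnn2 and Actg1 began 47, 50, 56 and 90 bases before the start, and those of Myl9, Vcl and Arpc4 161, 227 and 250 bases before it. Of these 7 genes Actg1, Vcl, Cnn2, Myl6 and Arpc4 fell, Lima1 rose and Myl9 was not called. Of all tested members 61.7% were lower and 27.7% higher, and of all tested genes 38.6% and 40.3%. A link between the boxes and the direction of change was not tested.

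The comparison asked how this machinery differs between dexamethasone-differentiated and undifferentiated cells. Most of the set fell: 29 of the 47 tested members were lower and 13 higher, with actin itself, cofilin 1, profilin 1, fascin and tropomyosin 4 among the largest falls. Alpha-actinin 1, gelsolin, the Ena/VASP gene Enah and the adhesion adaptors Lasp1, Pxn and Lima1 went the other way. A call means a Benjamini-Hochberg adjusted p under 0.05 over all tested genes, from the quasi-likelihood test of edgeR. By the same rule 78.9% of all tested genes were called, 38.6% lower and 40.3% higher, against 61.7% and 27.7% of the tested members. Counts by role below stand against those shares of all tested genes and rest on 2 to 8 tested genes each. The members' median log2 fold change was -0.41, where that of all tested genes was 0.02.

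Much of the set is abundantly expressed. Of the 34 tested members whose mean reached 100 CPM in either group, 23 (67.6%) were lower and 7 (20.6%) higher. Of all 3071 tested genes at that level 56.8% were lower and 33.0% higher. A called fall of at least 2-fold was found for 10 members and a called rise of that size for 3, where the shares over all tested genes were 12.2% and 17.8%. In 29 of the 47 tested members every dexamethasone library lay below every undifferentiated library, and in 13 of the 47 above, against 38.9% and 41.0% of all tested genes. Scaling by library totals in place of TMM factors shifts the log2 fold changes of all genes by a median of 0.13, and levels are relative, not absolute amounts per cell. On that scale 27 members were lower and 15 higher.

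**Figure D1:**
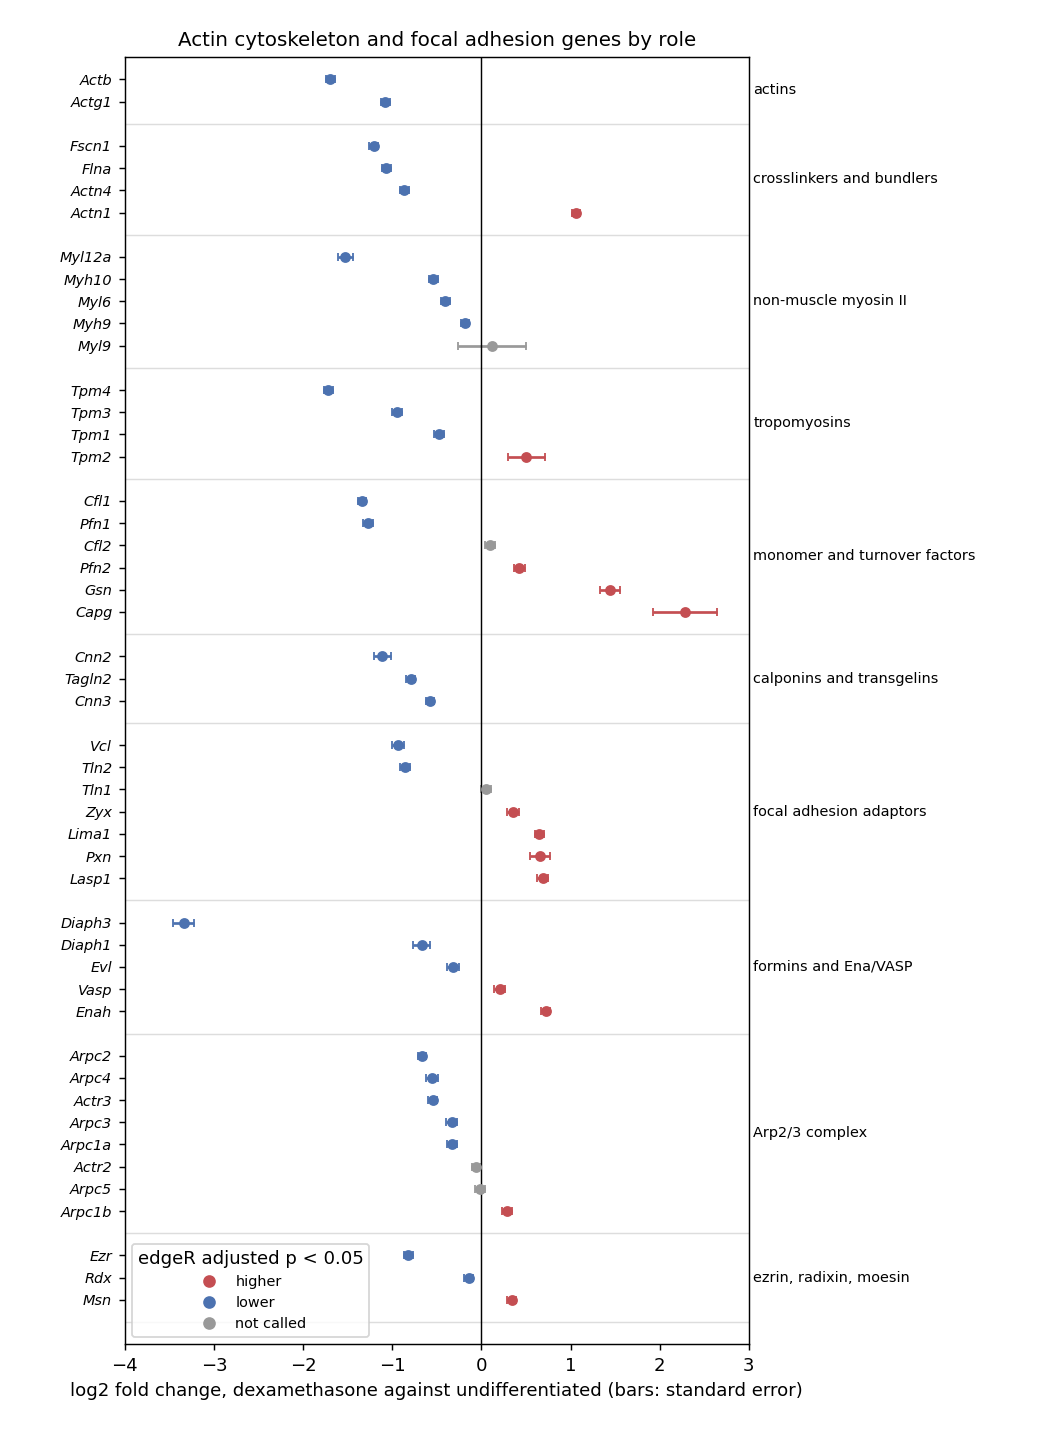
Log2 fold change of each of the 47 tested members with its standard error (x axis), by gene and role (y axis), colored by edgeR call. Actins, calponins and transgelins lie entirely on the lower side, while adhesion adaptors, Ena/VASP genes and turnover factors spread over both sides.

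As a share of all counted reads the 49 members went from 1.55% ± 0.0180 in the undifferentiated group to 1.12% ± 0.00927 in the dexamethasone group (SD, n = 3). Their summed level was 16494, 16089 and 16204 CPM in undifferentiated replicates 1, 2 and 3. It was 10787, 10755 and 10796 CPM in the dexamethasone replicates, well below every undifferentiated library. Actb alone made up 47.9% of that drop, and Actb, Cfl1 and Fscn1 together 73.6%. Without Actb the sum went from 12460 to 9604 CPM, a ratio of 1.30. By role, the actins went from 26.2% to 12.9% of the members' reads. Crosslinkers and bundlers went from 17.8% to 23.4% of a smaller total, while their own sum went from 2894 to 2518 CPM. Likewise the share of ezrin, radixin and moesin went from 6.86% to 9.66% while their sum went from 1115 to 1041 CPM. Adhesion adaptors went from 4.86% to 7.50% with sums of 791 and 809 CPM. The sum of formins and Ena/VASP genes was 654 ± 8.83 CPM in undifferentiated and 824 ± 22.6 CPM in dexamethasone libraries (SD, n = 3), or 4.02% and 7.64% of the members' reads. Enah alone went from a mean of 378 to 622 CPM, more than the change of that sum. Of the 5 genes of this role 2 were called higher and 3 lower.

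**Figure D2:**
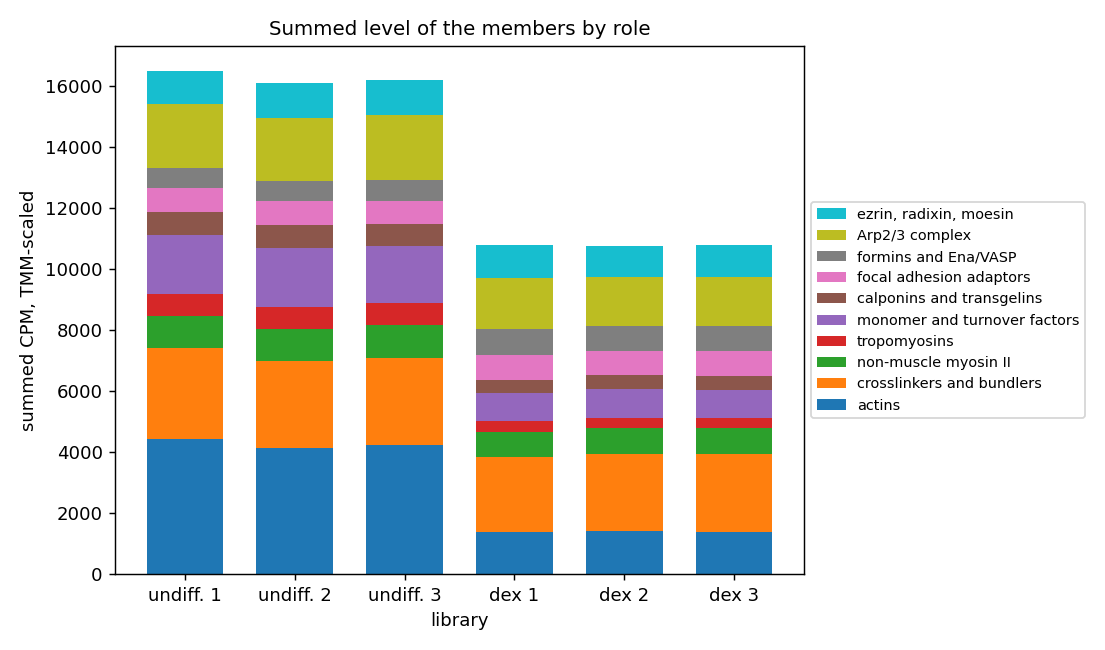
Summed TMM-scaled CPM of the members (y axis) in each of the 6 libraries (x axis), stacked by role. Dexamethasone libraries sum to 10755 to 10796 CPM and undifferentiated libraries to 16089 to 16494 CPM, and the actin segment at the base shrinks most.

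Cytoplasmic actin was the largest single change in reads. Actb, which encodes beta-actin (ENSMUSG00000029580, chromosome 5, 142903115 to 142906754 in GRCm38), stood at 3982, 3672 and 3752 CPM in undifferentiated replicates 1 to 3 and at 1153, 1202 and 1171 CPM in dexamethasone replicates 1 to 3. All dexamethasone libraries were low and the groups did not overlap. It fell 3.23-fold (log2 fold change -1.69 ± 0.048 SE, edgeR adjusted p = 7.47e-22). Actb is often used as a reference gene for normalization, and its level here differed between the groups by more than the spread of either. Actg1, the gamma-actin gene (ENSMUSG00000062825, chromosome 11, 120345690 to 120348542), stood at 451, 457 and 479 CPM and at 233, 209 and 216 CPM. Its groups were also apart, with a 2.11-fold fall (edgeR adjusted p = 1.05e-16). Of the 75-base stretches of Actg1 transcripts 33.5% also occur in transcripts of other genes, such as the pseudogenes Gm12715 and Actg-ps1, so its counts are uncertain. Acta2, the smooth muscle actin gene, had 1, 4 and 0 reads in undifferentiated and 0 reads in all dexamethasone libraries and could not be tested.

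Among the crosslinkers and bundlers 3 genes fell and 1 rose. Actn1, which encodes the widely expressed alpha-actinin 1 that ties filaments together near adhesions (ENSMUSG00000015143, chromosome 12, 80167547 to 80260371), stood at 705, 721 and 729.7 CPM and at 1487, 1498 and 1524 CPM. Every dexamethasone library was higher, with a 2.09-fold rise (log2 fold change 1.06 ± 0.046 SE, edgeR adjusted p = 7.99e-18). Its paralog Actn4, alpha-actinin 4, moved the opposite way, from 397 ± 15.7 to 218 ± 8.30 CPM (SD, n = 3). Fscn1, the fascin gene whose product bundles filaments in filopodia (ENSMUSG00000029581, chromosome 5, 142960343 to 142973185), stood at 1226, 1139 and 1122 CPM and at 476, 519 and 516 CPM, so that the groups were far apart. Fascin fell 2.31-fold (edgeR adjusted p = 4.88e-18). Flna, filamin A, which crosslinks filaments into gels (ENSMUSG00000031328, chromosome X, 74223461 to 74249820), stood at 623, 600.4 and 621 CPM and at 283, 299 and 298 CPM. It fell 2.10-fold with no overlap of the groups.

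Of the 5 non-muscle myosin II genes 4 fell and none rose. Myh9 and Myh10 encode the heavy chains of myosin IIA and IIB. Myh9 (chromosome 15, 77760587 to 77842175) stood at 525, 508 and 516 CPM and at 431, 467 and 468 CPM. The dexamethasone libraries were lower by a small margin (log2 fold change -0.18 ± 0.048 SE, edgeR adjusted p = 0.00135), and with library totals alone the call was lost (log2 fold change -0.06, edgeR adjusted p = 0.293). Myh10 (chromosome 11, 68691559 to 68816632) stood at 208, 217 and 225 CPM and at 152, 149 and 146 CPM, and its groups did not overlap. It fell 1.45-fold (edgeR adjusted p = 3.59e-10). The essential light chain gene Myl6 fell 1.32-fold. Myl12a, a regulatory light chain gene (ENSMUSG00000024048, chromosome 17, 70993656 to 71002878), stood at 70.2, 82.5 and 66.7 CPM and at 25.1, 26.8 and 24.3 CPM. The 2.88-fold fall of Myl12a was the steepest of the group, but 13.8% of its exonic length is covered by Myl12b on the same strand and reads in that part were not counted. Myl9, the regulatory light chain typical of smooth muscle, was near the limit of counting at 6 to 18 reads in a library and was not called (edgeR adjusted p = 0.791, log2 fold change 0.11 ± 0.381 SE).

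Tropomyosins coat filaments and set which myosins and severing proteins reach them. Tpm4 (ENSMUSG00000031799, chromosome 8, 72134975 to 72153142) stood at 298, 302 and 292 CPM and at 95.4, 90.5 and 85.2 CPM. Its dexamethasone libraries were all low, and it fell 3.28-fold (log2 fold change -1.71 ± 0.055 SE, edgeR adjusted p = 1.07e-20). Tpm3 stood at 294, 287 and 304 CPM and at 166, 145 and 148 CPM, which was 1.93-fold lower with no overlap. Stretches shared with pseudogenes such as Tpm3-rs7 make up 19.1% of Tpm3 transcripts and 9.11% of those of Tpm4, where the sharing gene was Gm7809. Tpm1 fell 1.39-fold, from 114 ± 2.25 to 82.1 ± 2.03 CPM (SD, n = 3). Tpm2 was scarce, at 5.37, 4.59 and 4.22 CPM and at 8.30, 5.34 and 6.55 CPM, and its groups overlapped at 5.34 and 5.37 CPM. It was called higher (edgeR adjusted p = 0.0293, log2 fold change 0.51 ± 0.209 SE). Without dexamethasone replicate 1, undifferentiated replicate 2 or undifferentiated replicate 3 it was not called (edgeR adjusted p = 0.214, 0.0752 and 0.088), nor with DESeq2 (adjusted p = 0.086).

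Calponins and transgelins are filament-stabilizing proteins, best known from smooth muscle and fibroblasts. All 3 tested members fell. Cnn2 stood at 33.4, 35.2 and 35.1 CPM and at 15.4, 16.8 and 15.6 CPM, which was 2.16-fold lower with the groups apart. Cnn3 fell 1.49-fold and Tagln2 1.73-fold, from 398 ± 7.70 to 229.8 ± 12.3 CPM (SD, n = 3). Tagln, the smooth muscle transgelin gene, had 1 read in each undifferentiated library and 5, 0 and 0 reads in dexamethasone replicates 1, 2 and 3.

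Of the 6 monomer and turnover factors 2 fell, 3 rose and 1 was not called. Cfl1 encodes the ubiquitous cofilin that severs filaments (ENSMUSG00000056201, chromosome 19, 5490455 to 5495201) and stood at 1251, 1254 and 1206 CPM and at 490.2, 503 and 472 CPM. It fell 2.53-fold in libraries that did not overlap (log2 fold change -1.34 ± 0.047 SE, edgeR adjusted p = 1.08e-19). Cfl2, the cofilin enriched in muscle, was at 111, 113 and 114 CPM and at 127, 118 and 117 CPM. The dexamethasone libraries of Cfl2 all lay slightly higher, and the difference was not called (edgeR adjusted p = 0.108, log2 fold change 0.10 ± 0.056 SE). With library totals alone Cfl2 was called higher (edgeR adjusted p = 0.000647).

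Pfn1, the ubiquitous profilin gene (ENSMUSG00000018293, chromosome 11, 70651850 to 70654644), stood at 511, 477 and 448 CPM and at 184, 203 and 211 CPM. Profilin 1 fell 2.41-fold (edgeR adjusted p = 2.23e-17) with a wide gap between the groups. Pfn2, the profilin enriched in neurons, stood at 70.7, 77.4 and 70.6 CPM and at 96.4, 98.3 and 99.3 CPM. It rose 1.34-fold, and each dexamethasone library lay above each undifferentiated library. Gsn encodes gelsolin, which severs filaments and caps their barbed ends in a calcium-dependent way (ENSMUSG00000026879, chromosome 2, 35256380 to 35307892). It stood at 12.6, 13 and 13 CPM and at 32.6, 32.8 and 40.4 CPM, a 2.72-fold rise (log2 fold change 1.44 ± 0.11 SE, edgeR adjusted p = 2.61e-12). Capg, a gelsolin relative that caps without severing, rose 4.87-fold from few reads: 3, 7 and 4 in undifferentiated and 32, 25 and 25 in dexamethasone libraries (edgeR adjusted p = 2.04e-06). No dexamethasone library of either capping gene fell into the undifferentiated range.

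**Figure D3:**
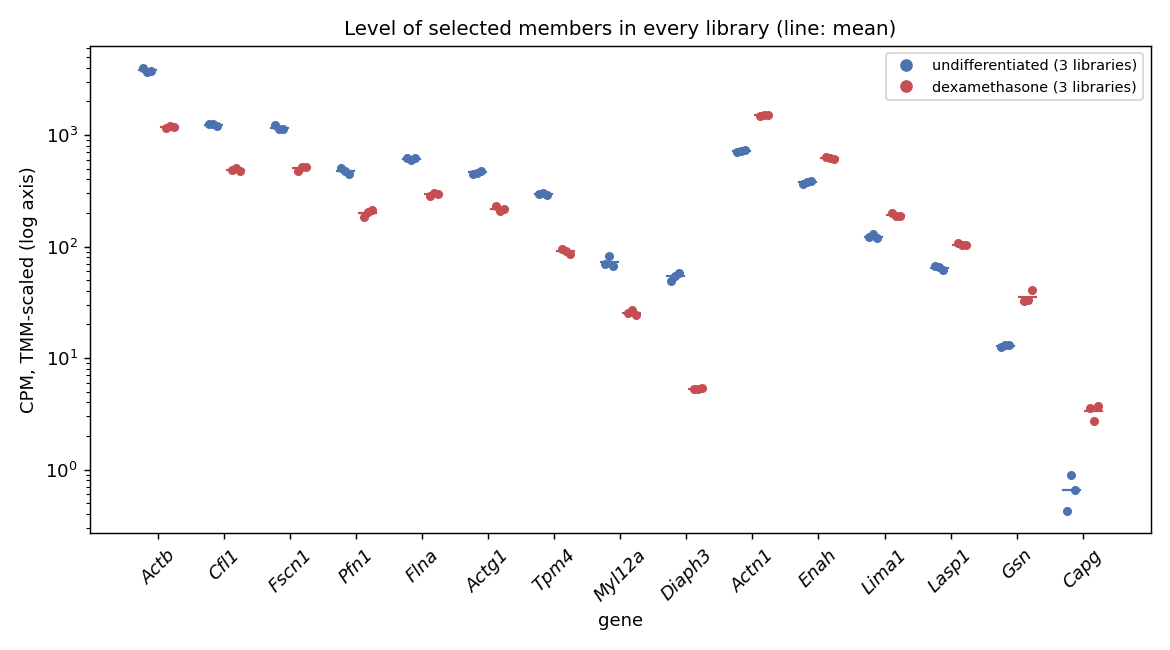
TMM-scaled CPM on a log axis (y axis) of 15 members, chosen after their values were seen (x axis), in each library as points, with group means as lines. The groups are apart for all 15 genes. The libraries of a group lie close together except for Capg, at 0.424, 0.892 and 0.649 CPM in undifferentiated libraries. Actn1, Enah, Lima1, Lasp1, Gsn and Capg are higher in dexamethasone libraries and the others lower.

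The Arp2/3 complex is a particle of several subunits that starts a new filament on the side of an old one. Of its 8 genes in the set 5 fell, 1 rose and 2 were not called, with log2 fold changes from -0.66 to 0.28. Arpc2, a core subunit, fell most, from 887 ± 7.92 to 559 ± 24.2 CPM (SD, n = 3). Actr3, an actin-related subunit, fell 1.46-fold, Arpc4 1.47-fold, Arpc3 1.26-fold and Arpc1a 1.26-fold. Actr3 shares 17.7% of its stretches with other genes such as Gm8822, and Arpc4 shares 9% with Ttll3. The partner Actr2 stood at 391 ± 10.7 and 375 ± 16.2 CPM and Arpc5 at 194 ± 10.3 and 191.9 ± 11.9 CPM (SD, n = 3), both without a call (edgeR adjusted p = 0.290 and 0.813). Arpc1b, the alternative to Arpc1a in the complex, stood at 90.3, 95.5 and 99.0 CPM and at 112, 117 and 119 CPM. Of these 8 genes Arpc1b was the one that rose, 1.22-fold (edgeR adjusted p = 7.92e-05). Among genes of alternative subunits kept in a further list below, Actr3b rose 1.23-fold (edgeR adjusted p = 0.00449) and Arpc5l was not called (edgeR adjusted p = 0.893).

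Elongation factors held the steepest fall of the set. Diaph3, a formin with known roles in filopodia and in cytokinesis (ENSMUSG00000022021, chromosome 14, 86655367 to 87141235), stood at 49.5, 54.0 and 58.3 CPM and at 5.31, 5.23 and 5.36 CPM. It fell 10.1-fold (log2 fold change -3.34 ± 0.114 SE, edgeR adjusted p = 4.64e-20), and its dexamethasone libraries were nearly identical. The 5 cycling cell genes above were also all called lower, and their part in the fall of Diaph3 was not tested. The related formin gene Diaph1 fell 1.59-fold. The Ena/VASP family, which protects barbed ends from capping at lamellipodia and growth cones, moved both ways. Enah, the Mena gene (ENSMUSG00000022995, chromosome 1, 181896384 to 182019990), stood at 361, 383 and 390.3 CPM and at 639, 625 and 604 CPM. All dexamethasone libraries lay above the undifferentiated range, and Mena rose 1.65-fold (edgeR adjusted p = 1.86e-13). Vasp rose 1.15-fold, and Evl fell by 0.32 on the log2 scale, from 91.4 ± 5.77 to 73.2 ± 4.84 CPM (SD, n = 3).

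Focal adhesion adaptors were the role with the most rises: 4 of 7 were higher, 2 lower and 1 not called. These are 57.1% higher and 28.6% lower, against 40.3% and 38.6% of all tested genes, and 7 genes are few. Vcl, vinculin, which binds talin and actin under tension (ENSMUSG00000021823, chromosome 14, 20929398 to 21033676), stood at 100.2, 107 and 113 CPM and at 56.4, 56.9 and 53.9 CPM. It fell 1.91-fold (edgeR adjusted p = 2.79e-13) with no overlap. Tln2, the talin enriched in brain and muscle, fell 1.82-fold. Tln1, the ubiquitous talin, went from 193 ± 4.13 to 200.2 ± 12.7 CPM (SD, n = 3) without a call (edgeR adjusted p = 0.372, log2 fold change 0.05 ± 0.054 SE), although it was called higher with library totals alone (edgeR adjusted p = 0.00446).

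Zyxin, paxillin and the LIM-domain proteins rose. Pxn, the paxillin scaffold (ENSMUSG00000029528, chromosome 5, 115506676 to 115555987), stood at 20.1, 15.6 and 14.9 CPM and at 25.4, 28.6 and 26.1 CPM. The groups did not overlap and paxillin rose 1.58-fold (edgeR adjusted p = 6.09e-06). Zyx, zyxin, which gathers at strained filaments, stood at 106, 96.9 and 89.0 CPM and at 114, 120.2 and 140.4 CPM. Its dexamethasone libraries spread more than the others but all lay above the undifferentiated ones, with a 1.28-fold rise (edgeR adjusted p = 6.29e-05). Lasp1, a LIM and SH3 protein, stood at 66.7, 65.1 and 61.7 CPM and at 107, 103 and 102 CPM. Lima1, also called EPLIN, stood at 121, 128 and 119 CPM and at 201, 188 and 189.6 CPM. Both were higher in all dexamethasone libraries, Lasp1 by 1.61-fold and Lima1 by 1.57-fold.

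Ezrin, radixin and moesin link filaments to the plasma membrane. Ezr fell 1.76-fold, from 343 ± 9.02 to 195 ± 10.8 CPM (SD, n = 3). Msn stood at 388, 425 and 417 CPM and at 534, 504 and 516 CPM, and its dexamethasone libraries were all higher, by 1.26-fold. Rdx, at 362 ± 18.3 and 328 ± 7.13 CPM (SD, n = 3), was called lower by a small margin (edgeR adjusted p = 0.0126, log2 fold change -0.14 ± 0.050 SE). That call was lost when undifferentiated replicate 3 was left out (edgeR adjusted p = 0.0817), with library totals alone (edgeR adjusted p = 0.79) and with no filter on low counts (edgeR adjusted p = 0.0765).

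Related genes were then compared within each library, since the ratio of 2 genes counted in the same library does not depend on how libraries are scaled. Ratios were taken of reads per exonic length, for 21 pairs. In 19 pairs the groups did not overlap, with the first-named gene gaining in 10 and losing in 9. They include Myl9 to Myl12a, with 6 to 18 reads of Myl9 in a library. Gsn to Capg is also among them, with 3, 7 and 4 reads of Capg in undifferentiated libraries. Each of these 19 had p = 0.1 in an exact two-sided permutation test of 3 against 3 libraries, the smallest it can give. After Benjamini-Hochberg adjustment over the 21 pairs this was 0.111, so none can pass 0.05 by that test. Single genes were often apart too: 38.9% of all tested genes had every dexamethasone library below every undifferentiated one, and 41.0% above. How often pairs of unrelated genes come apart was not computed. Actn1 went from 66.7% ± 1.26 to 88.4% ± 0.332 of both alpha-actinins (SD, n = 3), and the ratio to Actn4 changed 3.80-fold. Pfn1 went from 90.6% ± 0.704 to 74.9% ± 1.03 of both profilins, a 3.24-fold change of the ratio. Cfl1 went from 92.6% ± 0.234 to 82.3% ± 0.757 of both cofilins. Cofilin 1 and profilin 1 were the more abundant paralogs in both groups by this measure.

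The Diaph1 to Diaph3 ratio changed 6.29-fold and that of Evl to Enah 2.06-fold. Talin 1 went from 65.6% to 78.2% of both talins, and Arpc1a from 69.9% to 60.3% of both Arpc1 isoforms. Ezrin went from above radixin to below it, with a log2 ratio of 0.42 ± 0.056 against -0.26 ± 0.1 (SD, n = 3), and moesin crossed radixin in the other direction, from -0.27 ± 0.042 to 0.21 ± 0.024. Among tropomyosins Tpm1 gained on Tpm4 by 2.36-fold and on Tpm3 by 1.39-fold. The Actb to Actg1 ratio went from 8.15 to 5.32, with the uncertainty of Actg1 given above. The groups overlapped for Lasp1 to Lima1 (exact permutation p = 0.4) and for Tagln to Tagln2 (exact permutation p = 1).

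**Figure D4:**
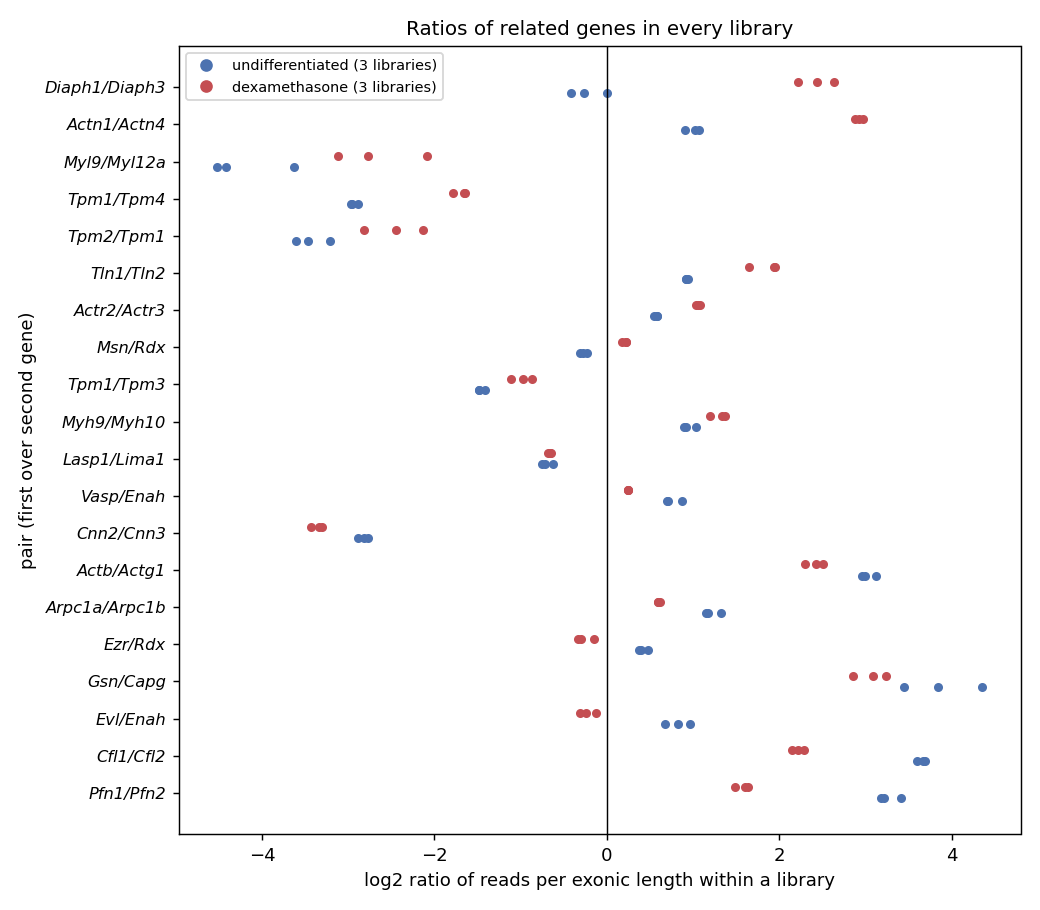
Log2 ratio of reads per exonic length (x axis) for 20 pairs of related genes (y axis), 1 point per library; Tagln to Tagln2 is left out for lack of reads. The groups are apart in all pairs shown but Lasp1/Lima1. Myl9/Myl12a and Gsn/Capg rest on few reads of Myl9 and Capg.

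Levels per exonic length allow members to be ranked against each other within a group. Actb ranked first in both groups, at 1419 and 439 CPM per kilobase in undifferentiated and dexamethasone libraries, and Arpc2 second, at 436 and 275 CPM per kilobase. Actn1 moved from rank 9 to rank 3 and Msn from 18 to 10, while Tpm4 moved from 8 to 16 and Flna from 16 to 24. Exonic length is that of all annotated exons of a gene, so levels of genes with long rarely used exons are understated.

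The surrounding pathway was followed in 6 further lists of genes by role. Each count stands against the 40.3% higher and 38.6% lower of all tested genes. Integrins are the membrane receptors of focal adhesions. Of 17 tested integrin genes 12 (70.6%) rose and 3 (17.6%) fell, with a median log2 fold change of 1.14. Itga2, a collagen receptor subunit, stood at 2.40, 1.66 and 1.46 CPM and at 34.9, 36.7 and 36.9 CPM, a 19.4-fold rise (edgeR adjusted p = 2.87e-19). Itga6, a laminin receptor subunit, rose 2.60-fold, from 57.9 ± 3.31 to 151 ± 9.60 CPM (SD, n = 3). Itga1 fell 2.00-fold and Itgav 1.22-fold.

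Of 28 tested adhesion kinases and adaptors 16 (57.1%) rose and 5 (17.9%) fell (median 0.31). Tns1, a tensin that binds integrin tails and actin, stood at 4.52, 5.35 and 5.52 CPM and at 43.7, 46.1 and 43.9 CPM, 8.69-fold higher (edgeR adjusted p = 4.72e-19). Sorbs3, the vinculin-binding protein vinexin, rose 10.7-fold from 1.61 ± 0.577 CPM (SD, n = 3). Pdlim7 fell 2.84-fold and Ilk, integrin-linked kinase, 1.31-fold. Of 25 tested crosslinkers, spectrins and other myosins 14 (56%) rose and 5 (20%) fell (median 0.24). Myo6, the myosin that walks toward the pointed end, rose 3.52-fold and caldesmon, Cald1, 1.68-fold, while Marcksl1 fell 1.45-fold and Dbnl 1.35-fold.

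Of 25 tested nucleation promoters and formins 13 (52%) rose and 6 (24%) fell (median 0.15). Cyfip2, a WAVE complex subunit, rose 3.54-fold and the formin gene Daam1 3.28-fold, while its relative Daam2 fell 3.47-fold and Fmnl3 1.83-fold. Of 22 tested genes of filament turnover and end capping 8 (36.4%) rose and 10 (45.5%) fell (median -0.08), shares near those of all tested genes. Avil, the gelsolin relative advillin of sensory and sympathetic neurons, had 3, 1 and 0 reads in undifferentiated and 153, 173 and 148 reads in dexamethasone libraries, a fitted 93.0-fold rise whose size depends on the prior count (edgeR adjusted p = 2.83e-16). Tmod1, which caps pointed ends, rose 4.61-fold while Tmod3 fell 2.07-fold. Tmsb10, a thymosin that holds actin monomers, fell 1.91-fold.

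Of 27 symbols listed for regulators of actin gene transcription and their classic targets 23 were found, and the other 4 are older names of genes also listed under their current ones. Of 19 tested genes 9 (47.4%) rose and 9 (47.4%) fell (median 0.04), as many in one direction as in the other. Srf itself stood at 82.5, 80.0 and 77.4 CPM and at 23.7, 28.3 and 29.6 CPM. The groups were wide apart, and Srf fell 2.96-fold (log2 fold change -1.56 ± 0.079 SE, edgeR adjusted p = 3.46e-16). Egr1, an immediate early gene with CArG boxes, fell 2.76-fold. Wwtr1, the YAP relative known as TAZ, rose 1.35-fold and the actin-binding LIM protein gene Ablim3 2.24-fold.

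**Figure D5:**
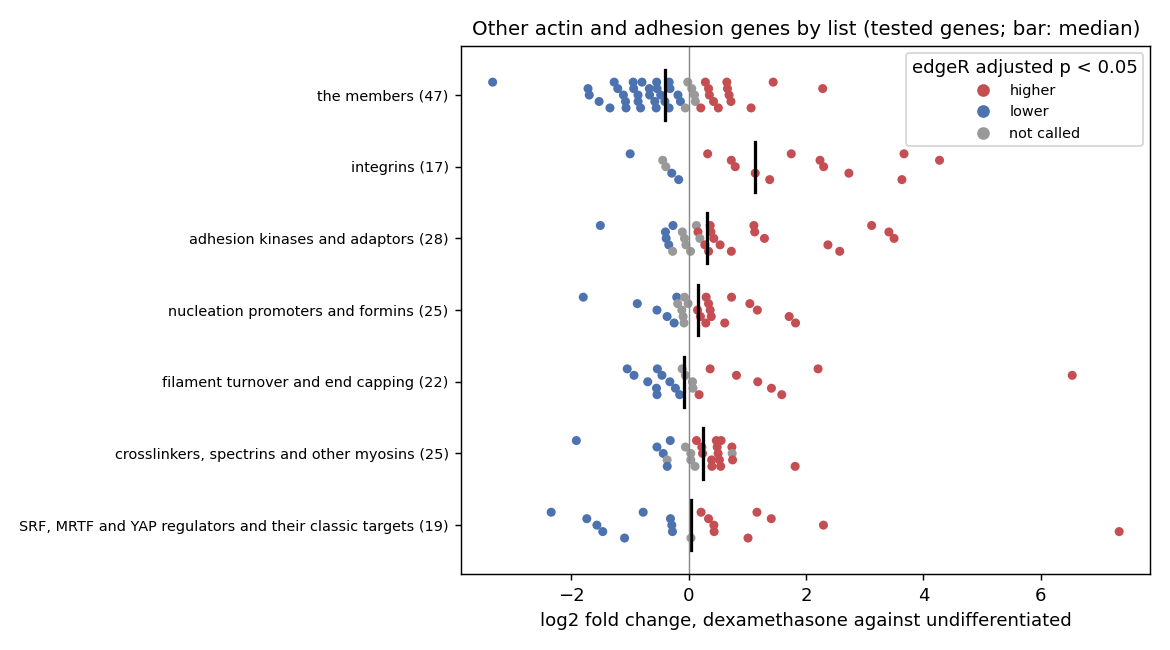
Log2 fold change of each tested gene (x axis) for the 47 members and the 6 further lists (y axis, number of tested genes in parentheses), colored by edgeR call with the list median as a bar. The integrin median of 1.14 is the highest and the members' median of -0.41 the lowest; Tead4, at the far right, had no undifferentiated read, so its position depends on the prior count and its floor of 3 reads over the group gives at least 18.3-fold.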

How the data were processed

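The authors deposited raw counts of reads per gene. They were made with featureCounts 1.6.4 from Ensembl release 96 exons on GRCm38 with strand setting 1, per the file headers, whose command holds no multi-mapping or multi-overlap option. Per the submitters' processing notes, the tools were HISAT2 2.2.0, Trim Galore 0.6.4, FastQC 0.11.9, DESeq2 and Subread 1.6.4. Per the labels' protocols, libraries came from 500 ng of total RNA, 12 amplification cycles and 75-base reads. Names come from GENCODE M21, which had all 55536 identifiers at the same start and end.

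Genes kept by filterByExpr (minimum count 10, minimum total 15) entered the quasi-likelihood test of edgeR 4.0.16 (R 4.3.3) with TMM factors and group as the only term. CPM values use the same factors, and the SE is the log2 fold change over the square root of F. Within-library ratios add 0.5 reads per gene. Sharing of 75-base stretches was computed over GENCODE M21 transcripts. In simulated data for this comparison, with 200 of 12664 genes changed, the test recovered 52% at the smallest fold used, 80% at 1.5-fold and 96% at 2-fold and at 4-fold, and 2.99% of its 167 calls were unchanged genes. Far fewer genes changed there than the 78.9% called in the real data, so these rates do not carry over to it. No pair of same-group libraries looked like a duplicate (chi-square over its degrees of freedom 1.65 to 3.19). Members and lists were chosen with earlier results of these data known. Values in every library are given for up to 12 of the largest rises and falls among called members with at least 1 CPM and for a few fixed genes. From each further list up to 2 called genes per direction are named, those with the smallest adjusted p and at least 1 CPM. Another group of genes is not reported here. Alternatives were RLE factors, library totals, no filter, DESeq2 1.42.0, limma 3.58.1 voom, each library left out, the replicate number as a block, and counts summed with pseudogenes named after a gene. Leaving out members with over 5% shared stretches was chosen after seeing the data.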

Additional observations from a re-analysis of the deposited data

How the results depend on the processing

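The counts of members called stayed within 12 to 15 higher and 27 to 29 lower under the other scalings, filter, tools, block and pseudogene sums, and left-out libraries gave 12 to 13 higher and 28 to 29 lower. The pseudogene sums cover only pseudogenes named after a gene and leave out others that share stretches, such as Gm7809 with Tpm4. They also cannot restore reads that were not counted because they map to several places. Without the 7 members that share over 5% of their stretches with other genes, 22 were lower and 13 higher. Of 611 single-member values under 13 alternatives 601 kept their side of the threshold, 8 lost the call and 2 gained it. No called value changed sign, while 8 values of members without a call did: 5 of Arpc5, 2 of Myl9 and 1 of Actr2. The changes concern Myh9, Tpm2, Cfl2, Tln1 and Rdx; Rdx was also not called with no filter (edgeR adjusted p = 0.0765) and with library totals (edgeR adjusted p = 0.79). Pairs whose ratios do not overlap numbered 19 to 20. The replicate numbers did not pair the libraries (correlation of same-numbered deviations -0.0947, 0.0357 and -0.071, with 2 of 6 libraries closest to their own number), and the replicate block gave 13 members higher and 29 lower, as without it. Low counts limit Acta2, Tagln, Myl9, Tpm2 and Capg.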
